A study of Homo sapiens with 10 samples.

Results

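Transcripts of 10 genes of the BCL2 family were followed in K562 cells through a uridine chase with and without an inhibitor of transcription. The members were taken by gene symbol, with no measured value, as MCL1, BCL2L1, BAX, BAK1, BCL2L11, PMAIP1, BBC3, BID, BAD and BCL2L13, and they are 10 of the 59204 human genes listed. K562 is an established line from chronic myeloid leukaemia. All cells were grown for 12 h in 30 µM 4-thiouridine, a uridine analogue that cells take up into the RNA they make, renewed every 3 h with the medium, and were then washed into 3 mM uridine. The uridine medium held DMSO, 1 µM JQ1, which blocks the bromodomains of BET proteins, or 1 µM AZ-5576, an inhibitor of the elongation kinase CDK9. Cells were harvested at 2, 4 and 8 h in each arm, and 1 library at 0 h serves all 3 arms, which gives 10 libraries with 1 per condition (n = 1). The cells of all groups thus carried the 4-thiouridine pulse and the uridine chase. The comparisons ask which of these transcripts moved under each inhibitor and how fast their labelled copies were lost.

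Proteins of the BCL2 family control whether the outer mitochondrial membrane is opened to release cytochrome c, the step that commits a cell to the intrinsic pathway of apoptosis. MCL1 and BCL-XL, the main product of BCL2L1, hold the pathway back by binding the pore-forming effectors BAX and BAK and the BH3-only proteins that trigger them. BIM (from BCL2L11), NOXA (PMAIP1), PUMA (BBC3), BID and BAD are BH3-only proteins that differ in which guardians they bind. MCL1 protein and mRNA are known to be short-lived, and erythroid cells are known for their use of BCL-XL.

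Each library held between 10293371 and 16008906 human reads, of which 2031796 to 3868420 were labelled, and between 1208073 and 2366155 reads of added fly RNA. Levels are given as reads per 1000000 fly reads. Fly RNA was added at 5% to the purified RNA, so a level is relative to RNA mass and not to cell number. A change in the number of cells, or in all RNA per cell alike, is not seen on this scale. All 11 K562 markers examined had a mean of at least 20 reads. Of 16 markers of other cell types, 6 reached that mean. EPCAM held 374 to 902 reads per library, CD3D 171 to 560 and LYZ 128 to 239. The K562 marker EPOR held 21 to 124. CD8A and VWF had 0 reads in every library. The summed level of these 16 markers was 819 at 0 h, 749 to 994 in DMSO, 495 to 773 in JQ1 and 543 to 757 in AZ-5576, and its part in the results was not tested. In the make-up of the fly reads, the AZ-5576 library at 2 h and the 0 h library stood farthest from the rest, with a median distance of 0.219 and 0.157 log2 units from the median fly profile against 0.0652 to 0.124 in the other 8 libraries. Counts of members called are given with and without these libraries.

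The 250 bases before an annotated start are printed for BCL2L1 (chr20:31723964-31724213, minus strand), BCL2L11 (chr2:111120664-111120913, plus strand) and BBC3 (chr19:47232668-47232917, minus strand). BCL2L1 was lower and BCL2L11 higher under JQ1 than under DMSO. Under AZ-5576, BBC3 had the lowest averaged log2 difference from DMSO of the members. None of these differences was called by the main test described below. They come from RefSeq on GRCh38.p14, with 17 promoters for 9 of the 10 members. MCL1 had no promoter listed and was not searched. Matches to the motifs searched are in capitals on either strand. 
BCL2L1: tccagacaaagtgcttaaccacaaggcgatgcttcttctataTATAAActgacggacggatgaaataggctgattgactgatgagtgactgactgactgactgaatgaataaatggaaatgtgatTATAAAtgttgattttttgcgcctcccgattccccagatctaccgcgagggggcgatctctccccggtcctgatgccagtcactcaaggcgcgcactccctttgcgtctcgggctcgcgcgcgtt
BCL2L11: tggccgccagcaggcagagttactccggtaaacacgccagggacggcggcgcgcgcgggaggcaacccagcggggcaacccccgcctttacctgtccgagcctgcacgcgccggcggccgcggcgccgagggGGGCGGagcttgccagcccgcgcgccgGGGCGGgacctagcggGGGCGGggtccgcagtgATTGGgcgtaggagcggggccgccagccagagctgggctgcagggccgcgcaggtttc
BBC3: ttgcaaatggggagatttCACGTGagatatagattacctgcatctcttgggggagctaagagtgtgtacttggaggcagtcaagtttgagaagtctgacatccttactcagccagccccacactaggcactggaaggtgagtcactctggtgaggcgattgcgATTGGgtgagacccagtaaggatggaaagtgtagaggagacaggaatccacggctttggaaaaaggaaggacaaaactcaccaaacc
The motifs were the TATA box TATAAA, the GC box GGGCGG, the CCAAT box CCAAT, the E-box CACGTG, the cyclic AMP element TGACGTCA, the GATA motif AGATAA and the STAT motif TTCNNNGAA, none of which contains another. TATAAA was matched 2 times in the BCL2L1 window and in no other member's window, and it is present in 10.7% of the 35116 promoters of the table. The second listed start of BCL2L1 had no match to any of the 7 motifs. The BCL2L11 window held 3 GC boxes and 1 CCAAT box, which are present in 42.6% and 32.0% of all promoters. The BBC3 window held 1 CCAAT box and 1 E-box, and the E-box is present in 6.345% of all promoters. None of the windows searched held the cyclic AMP, GATA or STAT letters, which are present in 1.65%, 9.17% and 6.57% of promoters. All of these are matches of letters, and no site was tested.

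Sequences of the 3′ untranslated region were read for the AUUUA pentamer, ATTTA in DNA letters, which is the core of AU-rich elements known for rapid mRNA turnover. The 30 bases with the most pentamers are shown for MCL1 and PMAIP1, the members with most pentamers per kilobase, in the longest region annotated in GENCODE v29 (GRCh38), with the pentamers in capitals. 
MCL1, chr1:150576222-150576251, minus strand: catttgacctaATTTAactggtgaaATTTA
PMAIP1, chr18:59903961-59903990, plus strand: aggaataattttATTTAttttgcctATTTA
MCL1 held 10 pentamers in 2824 bases, or 3.54 per kilobase, against a median of 1.67 over 9495 genes, and 80.2% of those genes had fewer. PMAIP1 held 5 in 1553 bases, 1 of them inside the nonamer TTATTTATT that 9.08% of genes contain. BCL2L13 held 9, BCL2L11 8, BCL2L1 3 and BID 2, while BAX, BAK1, BBC3 and BAD held 0. These are matches of letters and not tested sites.

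MCL1 (chr1:150574551-150579738, minus strand, GRCh38) was lower in AZ-5576 than in DMSO at each time, and it was the member called in both comparisons of AZ-5576 with another arm. Its level was 937 reads per 1000000 fly reads at 0 h. At 2, 4 and 8 h it was 1588, 2152 and 2429 under DMSO, and 1693, 2362 and 3581 under JQ1. Under AZ-5576 it was 603, 355.5 and 158. The 3 AZ-5576 libraries were the lowest of the 10, in the order of time, and each JQ1 library lay above DMSO of the same time. Neighbours in the order of the 10 levels differed beyond their counting intervals except DMSO at 8 h and JQ1 at 4 h. Relative to DMSO at the same time, the AZ-5576 level was 38.0% at 2 h (exact 95% interval 34.9% to 41.2%), 16.5% at 4 h (15.0% to 18.1%) and 6.49% at 8 h (5.82% to 7.21%). The median over the 11797 genes tested was 84.0%, 63.0% and 32.2%. These intervals, exact Poisson for levels and Clopper-Pearson for ratios and shares, cover counting error only, since reads without molecular identifiers are not independent molecules.

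**Figure D1:**
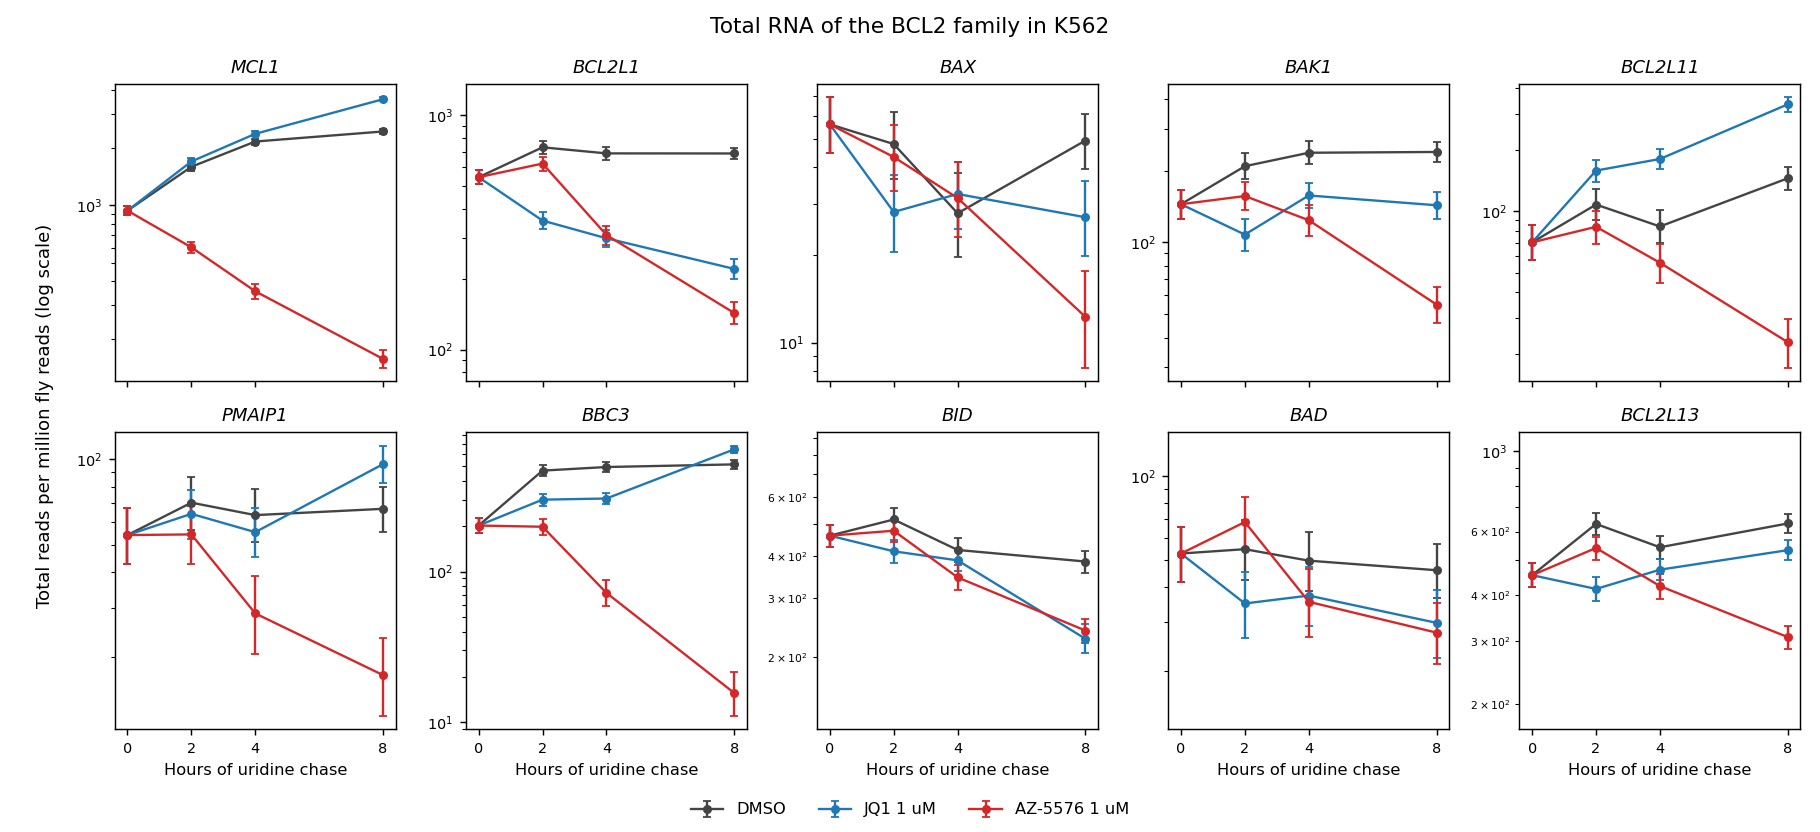
Total reads per 1000000 fly reads (log axis, 1 panel per gene with its own scale) against hours of chase; points are single libraries, the 0 h point stands in every arm, and bars are exact 95% Poisson intervals. In DMSO, MCL1 rises at each time and BBC3 between 0 and 2 h. Both fall with time in AZ-5576, to 158 and 15.6 at 8 h, while BCL2L1 is lower in JQ1 than in DMSO at each time.

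The main test averaged each inhibitor's difference from DMSO over 2, 4 and 8 h (edgeR's quasi-likelihood test, Benjamini-Hochberg adjusted p of 0.05 or less over all genes tested), with the scatter of the libraries about the model in place of replicate error. In AZ-5576 against DMSO, 1 of 10 members was called, against a background of 2.47% of genes called in either direction and 2.38% called lower. That member was MCL1, with a log2 difference of -2.48 ± 0.48 (SE, adjusted p = 0.0419), and its ratio was below DMSO at 3 of 3 times. As each library was left out, the difference of MCL1 ran from -3.24 (without AZ-5576 at 2 h) to -1.88 (without AZ-5576 at 8 h) and its adjusted p from 3.12e-05 to 0.253, and the call was lost without DMSO at 4 h (0.204), DMSO at 8 h (0.253), JQ1 at 4 h (0.0732) or AZ-5576 at 4 h (0.197). Without the 2 libraries that stood apart in the fly reads, 6 members were called lower, namely MCL1, BCL2L1, BAK1, BCL2L11, PMAIP1 and BBC3, and the same 6 were called without AZ-5576 at 2 h alone, but 57.9% and 58% of all genes were called in these fits. DESeq2 called 4 (MCL1, BCL2L1, BAK1 and BBC3) and 35.5% of all genes. The members' shares in these fits were near those of all genes. A model of straight lines over hours called 9 members lower, all but BAD, against a background of 73.3% of genes called lower and 73.8% in either direction. With JQ1 left out altogether, 2 members were called (MCL1 and BBC3), against 14.3% of genes.

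All 10 members had values below 0 in AZ-5576 against DMSO, with a median of -1.05 against -0.82 over all genes tested. The shift of the median gene depends on the scale. With TMM scaling, which centres the human genes, the median of all genes was -0.08, MCL1 stood at -1.82 (adjusted p = 0.0300), and BAX, BID, BAD and BCL2L13 lay above 0 without being called. On the fly scale MCL1, BBC3, BCL2L1, BAK1, PMAIP1 and BCL2L11 lay below the median gene, from -2.57 to -1.03, and BAX, BCL2L13, BID and BAD above it, from -0.62 to -0.28.

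BBC3 (chr19:47220822-47232766, minus strand) encodes PUMA, a BH3-only protein that binds all the guardians and is a known target of p53. Its level was 202 at 0 h, then 468, 494 and 514 under DMSO, 300.0, 305 and 647 under JQ1, and 198, 72.2 and 15.6 under AZ-5576. The 8 h AZ-5576 library was the lowest of all, with 37 reads, and its level was 3.04% of DMSO (exact 95% interval 2.13% to 4.22%). Of the genes tested, 1.57% had a lower ratio at that time. The averaged log2 difference was -2.57 ± 0.74 (SE, edgeR adjusted p = 0.0563), with a larger SE than that of MCL1. As each library was left out, it ran from -3.71 (without AZ-5576 at 2 h) to -1.77 (without AZ-5576 at 8 h), and its adjusted p from 0.000521 to 0.256, the highest without DMSO at 8 h. The BBC3 difference passed the threshold with DESeq2 (0.000404), with no count filter, and without DMSO at 2 h (0.0457), JQ1 at 8 h (0.0210), AZ-5576 at 2 h (0.000521) or AZ-5576 at 8 h (0.0146).

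BCL2L1 (chr20:31664452-31723989, minus strand) encodes BCL-XL. Its level was 545 at 0 h, then 731, 688.5 and 687.9 under DMSO, 355.5, 299 and 221 under JQ1, and 623, 308.5 and 143 under AZ-5576. The DMSO levels did not differ beyond their counting intervals, all 3 JQ1 levels lay below them, and the AZ-5576 level was above that of JQ1 at 2 h and below it at 8 h. In JQ1 it was 48.6% of DMSO at 2 h (exact 95% interval 43.7% to 54.1%), 43.4% at 4 h (39.0% to 48.3%) and 32.1% at 8 h (28.6% to 36.1%), where the median gene stood at 79.8%, 82.1% and 80.6%. In AZ-5576 it was 85.2%, 44.8% and 20.8% of DMSO, so that the 2 h value lay near the median gene (84.0%).

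In JQ1 against DMSO, 0 of 10 members were called by edgeR's quasi-likelihood test, against a background of 0% of genes. At an unadjusted p under 0.05 stood 1 member, BCL2L1, and 1081 genes, and DESeq2 called 71 genes but 0 members. The averaged log2 difference of BCL2L1 was -1.33 ± 0.38 (SE, edgeR adjusted p = 0.508), and 2.64% of genes had a lower value. Those of MCL1 (0.31 ± 0.44, 0.785) and BBC3 (-0.21 ± 0.67, 0.906) were smaller than their SE, and that of MCL1 was below 0 (-0.23) without JQ1 at 8 h and that of BBC3 above 0 with TMM (0.071) or without JQ1 at 2 h (0.25). Without the libraries that stood apart, 0 members were called. BCL2L1 was called when the fit held only 0 h, DMSO and JQ1 (-1.29, edgeR adjusted p = 0.00345), together with BAK1 (-0.76, 0.0197) and BCL2L11 (0.96, 0.0138), where 2697 genes (22.5%) were called. Without the AZ-5576 library at 8 h, BCL2L1 and BCL2L11 were called among 847 genes (7.16%). The straight-line model also called these 2 members, BCL2L1 lower and BCL2L11 higher, with backgrounds of 16.2% and 1.79% of genes and of 18% in either direction.

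**Figure D2:**
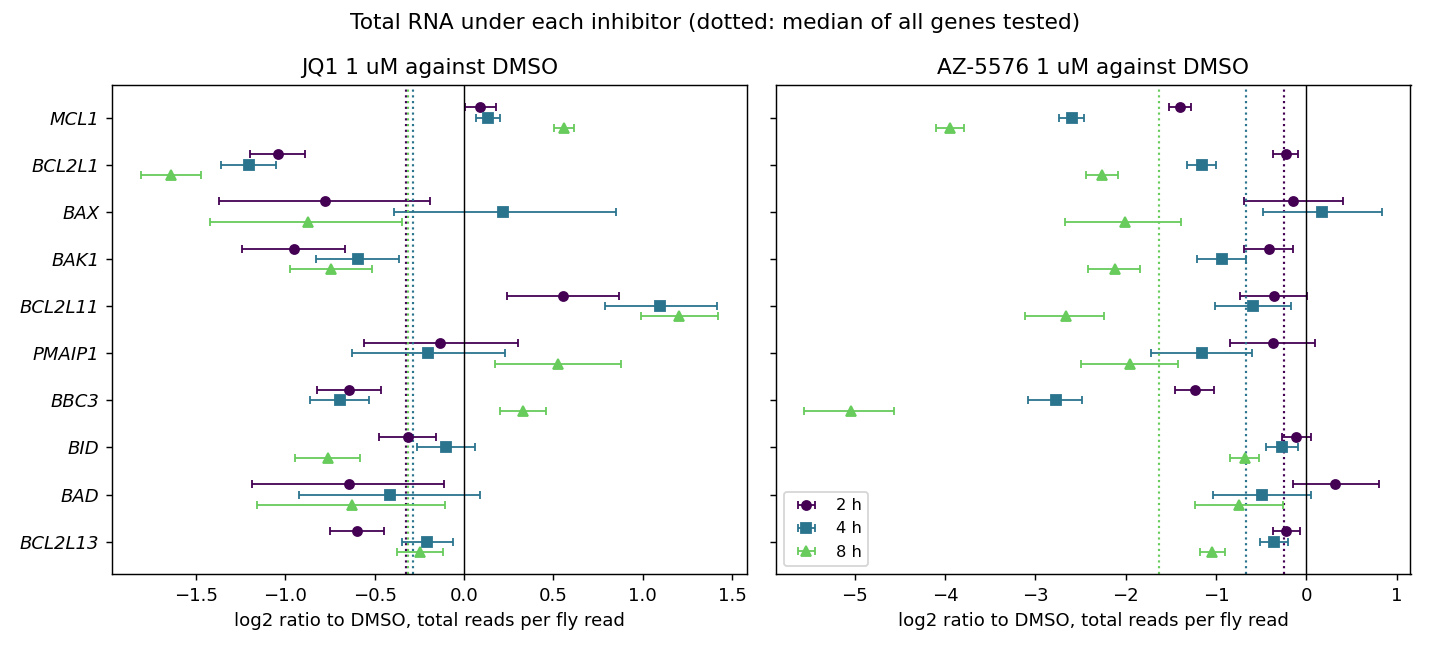
The log2 ratio of total reads per fly read to the DMSO library of the same time (horizontal axis) for each member, with JQ1 on the left and AZ-5576 on the right; marker shape gives the time, bars are exact 95% intervals from counting and dotted lines are medians of all genes tested. In JQ1, BCL2L1 lies left and BCL2L11 right of the medians at each time. In AZ-5576, MCL1 and BBC3 lie farthest to the left.

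BCL2L11 (chr2:111119378-111168447, plus strand) encodes BIM, a BH3-only protein that engages all guardians and can activate BAX and BAK directly. Its level was 70.3 at 0 h, then 108, 84.0 and 145 under DMSO, 158, 179.8 and 333 under JQ1, and 83.7, 55.9 and 22.8 under AZ-5576. The 3 JQ1 libraries were the highest of the 10, the one at 2 h not beyond counting error above DMSO at 8 h, and AZ-5576 at 4 and 8 h the lowest. In JQ1 it was 147% of DMSO at 2 h (exact 95% interval 118% to 183%), 214% at 4 h (172% to 267%) and 230.1% at 8 h (198% to 268%). The averaged log2 difference was 1.00 ± 0.52 (SE, edgeR adjusted p = 0.552), with 98.3% of genes below it. The 3′ end of BCL2L11 is overlapped on the other strand by the noncoding gene MIR4435-2HG, which had a mean of 3151 reads, and whether reads were counted by strand is not stated in the labels, so reads of the pair may not be told apart. MIR4435-2HG stood at 71.7%, 86.2% and 73.7% of DMSO in JQ1, below 100% where BCL2L11 was above it.

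PMAIP1 (chr18:59899948-59904306, plus strand) encodes NOXA, a BH3-only protein that binds MCL1 and helps to send it to the proteasome. Its level was 54.1 at 0 h, then 70.4, 63.6 and 66.9 under DMSO, 64.2, 55.4 and 96.2 under JQ1, and 54.4, 28.6 and 17.3 under AZ-5576. The counts were small, from 41 to 168 reads, and the levels overlapped within counting error except for JQ1 at 8 h, which was above, and AZ-5576 at 4 and 8 h, which were below. JQ1 at 8 h was 144% of DMSO (exact 95% interval 113% to 184%), and AZ-5576 was 25.9% (17.7% to 37.2%). The averaged log2 differences were 0.11 ± 0.45 in JQ1 and -1.07 ± 0.47 in AZ-5576 (SE), with edgeR adjusted p-values of 0.928 and 0.1055.

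BID and BAD, BH3-only proteins switched on by caspase cleavage and by loss of phosphorylation, had AZ-5576 levels nearer to DMSO. BID (chr22:17734138-17774770, minus strand) had a level of 460.2 at 0 h, then 514, 417 and 386 under DMSO, 413.5, 389 and 227 under JQ1, and 476, 346 and 240.5 under AZ-5576. JQ1 and AZ-5576 at 8 h were the lowest libraries and did not differ from each other beyond counting error. BID in AZ-5576 at 8 h was 62.4% of DMSO (exact 95% interval 55.7% to 69.8%), above the median gene at 32.2%. BAD (chr11:64269830-64284704, minus strand) ranged from 27.5 to 68.3 over the 10 libraries, with 52 to 93 reads, and no neighbours in the order of its levels differed beyond counting error. In AZ-5576 its level was 68.3, 35.4 and 27.5 at 2, 4 and 8 h, against 54.6, 49.7 and 45.9 in DMSO. At 8 h its exact 95% Poisson interval was 21.2 to 35.0 in AZ-5576, below the 36.5 to 57.1 of DMSO. A gene on the other strand, GPR137, overlaps BAD with a mean of 503 reads but does not cover its 3′ end.

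The effectors BAX and BAK, which form the pore, were lowest in AZ-5576 at 8 h. BAX (chr19:48954815-48961798, plus strand) had a level of 56.1 at 0 h, then 48.0, 27.8 and 49.3 under DMSO, 28.1, 32.3 and 26.9 under JQ1, and 43.3, 31.3 and 12.3 under AZ-5576. With 29 to 87 reads per library, the 8 h AZ-5576 library was the 1 that stood apart from its neighbour in the order beyond counting error, at 24.8% of DMSO (exact 95% interval 15.7% to 38.2%). BAK1 (chr6:33572547-33580293, minus strand) had a level of 145 at 0 h, then 209, 237.5 and 239 under DMSO, 108, 157 and 143 under JQ1, and 156.5, 124 and 54.9 under AZ-5576. The DMSO libraries after 0 h were the highest, and JQ1 stood at 51.7%, 66.2% and 59.8% of them at 2, 4 and 8 h. For BAK1, the averaged log2 difference was -1.09 ± 0.43 in AZ-5576 and -0.75 ± 0.42 in JQ1 (SE), with edgeR adjusted p-values of 0.0862 and 0.570.

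BCL2L13 (chr22:17628855-17730855, plus strand), known as a mitophagy receptor of the outer membrane, had a level of 455 at 0 h, then 629.9, 543 and 632 under DMSO, 417, 471 and 533 under JQ1, and 541, 424 and 307 under AZ-5576. Its levels in JQ1 were 66.1%, 86.7% and 84.4% of DMSO, around the medians of all genes. AZ-5576 at 8 h was the lowest library, at 48.6% of DMSO (exact 95% interval 44.2% to 53.4%). For BCL2L13, the averaged log2 difference in AZ-5576 was -0.52 ± 0.31 (SE, edgeR adjusted p = 0.1998).

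The inhibitors were then compared with each other at the same dose and times. In AZ-5576 against JQ1, 1 of 10 members was called, against 1.19% of genes in either direction and 1.17% lower, and it was again MCL1 (-2.78 ± 0.49 SE, edgeR adjusted p = 0.0317). At 8 h MCL1 in AZ-5576 was 4.40% of its JQ1 level (exact 95% interval 3.95% to 4.89%), BBC3 2.42% (1.69% to 3.35%) and BCL2L11 6.86% (5.09% to 9.07%), while the median gene stood at 43.6%. The averaged log2 differences of BBC3 (-2.36, edgeR adjusted p = 0.143), BCL2L11 (-2.02, 0.1002) and PMAIP1 (-1.18, 0.207) missed the threshold. BCL2L1 had a difference of 0.15 (95% interval -0.69 to 0.99, edgeR adjusted p = 0.841). It was below 0 (-0.33) without AZ-5576 at 2 h, and a difference of either sign was not resolved. Both inhibitors share the DMSO libraries in their comparisons with DMSO, and in the straight-line model they share the 0 h library too. The straight-line model called 5 members lower (MCL1, BBC3, BCL2L11, PMAIP1 and BAK1), against 55.9% of genes in either direction and 55% lower. The MCL1 call of AZ-5576 against JQ1 was lost without DMSO at 4 h, DMSO at 8 h, JQ1 at 4 h or AZ-5576 at 4 h, and 4 members were called without AZ-5576 at 2 h, or without both libraries that stood apart (MCL1, BCL2L11, PMAIP1 and BBC3), where 32% and 31.8% of all genes were called.

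MCL1 rose at each time in DMSO, while BBC3 rose between 0 and 2 h. The BBC3 level was 202 at 0 h and 468, 494 and 514 at 2, 4 and 8 h. From 2 h on, neighbouring times did not differ beyond counting error, so the slope of BBC3 spreads an early step over the hours. In the straight-line model of total RNA, the slope of MCL1 was 0.16 ± 0.03 log2 units per hour (SE, edgeR adjusted p = 0.000518) and that of BBC3 0.13 ± 0.04 (0.0330), 2 of 10 members against 24.5% of genes called higher and 28.3% called in either direction. Relative to 0 h, MCL1 at 8 h in DMSO was 259% (exact 95% interval 244% to 276%), BBC3 255% (223% to 291%) and BCL2L11 206% (163% to 261%), where the median gene was 143%. BID (83.8%), BAD (87.1%) and BAX (88.0%) were below 100%, of which BID alone had an interval that left out 100% (75.2% to 93.3%). The call of BBC3 was lost with TMM scaling (0.0795), without 0 h, DMSO at 4 or 8 h, or JQ1 at 2 or 8 h (0.0541 to 0.169), and without both libraries that stood apart (0.0628), while MCL1 was called in each of these fits. With TMM, BID was called lower (-0.098, adjusted p = 0.00605). With TMM, 1821 genes were called lower and 2011 higher in this comparison, against 446 and 2887 on the fly scale.

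The reads deposited as nascent were taken as labelled, that is, as reads with the T-to-C changes that 4-thiouridine leaves in RNA made during the pulse. Whether a read shows a change depends on its number of uridines, so labelled shares compare best between libraries of a gene. Where shares of different genes stand side by side below, part of the difference may come from their uridines, which was not tested. At 0 h the labelled share was 75.3% for BBC3 (exact 95% interval 70.0% to 80.0%), 70.2% for MCL1 (67.7% to 72.55%), 68.3% for BCL2L11 (58.4% to 77.05%) and 67.5% for PMAIP1 (56.1% to 77.55%). It was 50.1% for BCL2L13, 45.9% for BCL2L1, 39.8% for BID, 31.3% for BAX, 29.9% for BAK1 and 16.7% for BAD, where the median of 11787 genes was 51.5%. By 8 h in DMSO the share of MCL1 was 2.40% (1.97% to 2.91%), in JQ1 3.71% (3.26% to 4.21%) and in AZ-5576 31.1% (26.4% to 36.1%). The share was higher in AZ-5576 than in DMSO at 8 h for each of the 10 members, while the median gene was at 40.7% in AZ-5576 and 9.13% in DMSO. PMAIP1 had the highest share in AZ-5576 at 8 h, with 33 of 41 reads labelled (80.5%, 65.1% to 91.2%), above 98.2% of genes.

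**Figure D3:**
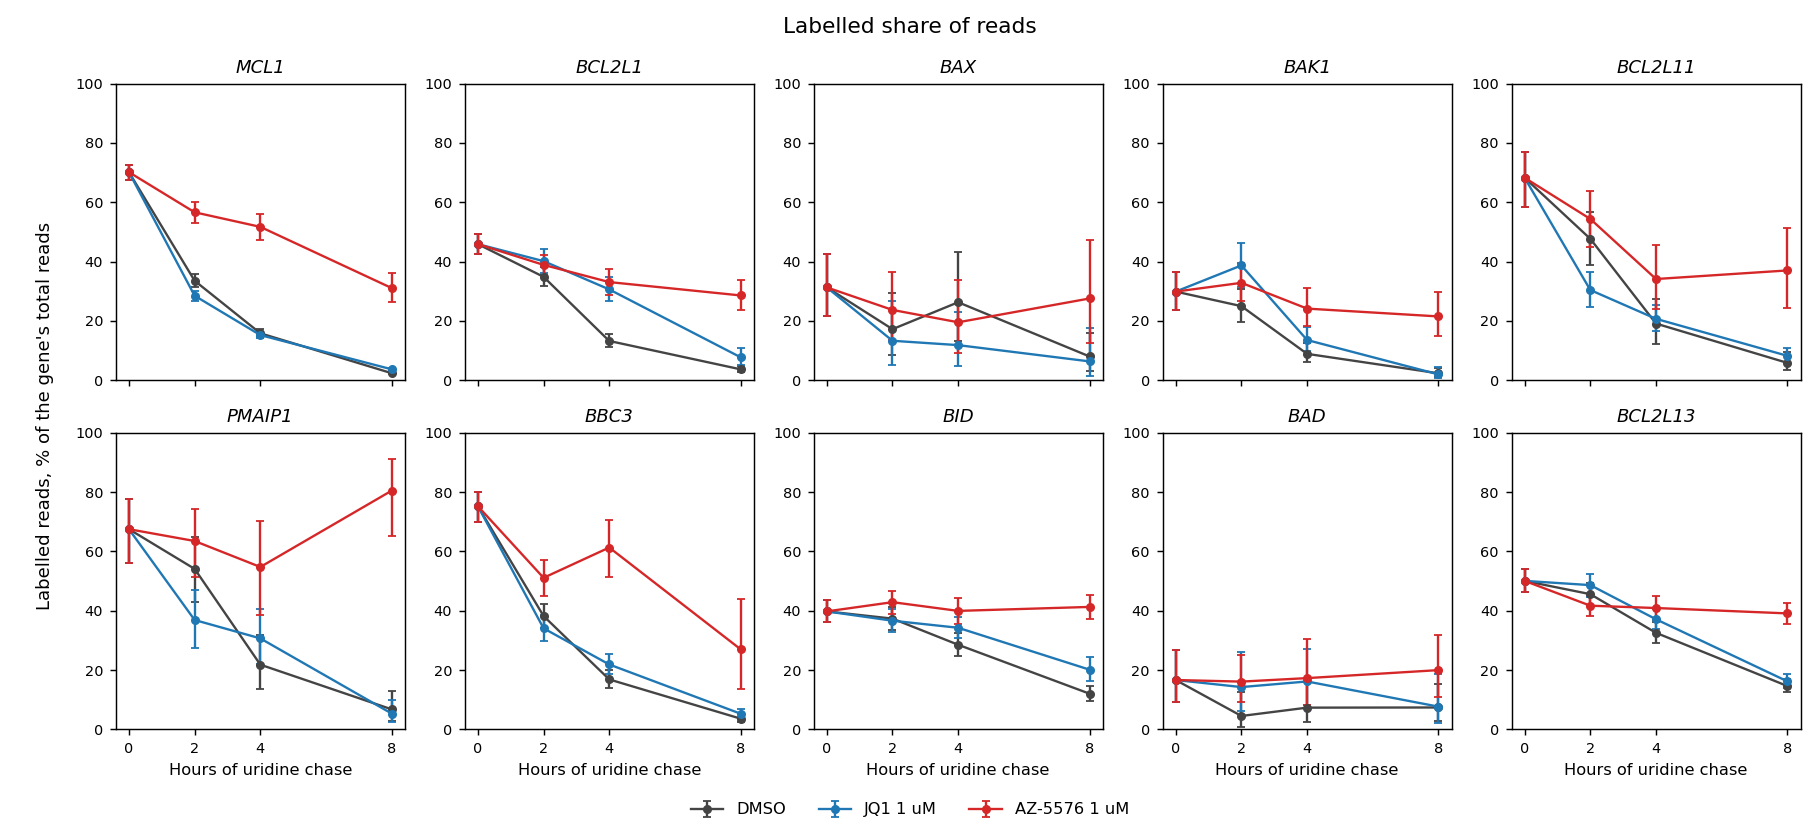
Labelled reads as a percentage of each gene's total reads (vertical axis, 0 to 100) against hours of chase; points are single libraries and bars exact 95% binomial intervals. At 8 h the share of MCL1 is 2.40% in DMSO and 31.1% in AZ-5576, and that of PMAIP1 in AZ-5576 is 80.5%.

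Unlabelled reads include RNA made during the chase. For MCL1 they stood at 279.8 reads per 1000000 fly reads at 0 h, then 1055, 1811 and 2371 under DMSO, 1211, 2001 and 3448 under JQ1, and 261.5, 171.6 and 108.6 under AZ-5576. DMSO and JQ1 were above 0 h at each time and AZ-5576 below it. For BCL2L1 they stood at 295 at 0 h, then 476, 597 and 662 under DMSO, 213, 207 and 204 under JQ1, and 380.5, 206 and 102 under AZ-5576. The JQ1 values were nearly level from 2 to 8 h and below 0 h. For BCL2L11 they stood at 22.3 at 0 h, 136 at 8 h in DMSO, 305 at 8 h in JQ1 and 14.4 at 8 h in AZ-5576.

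To estimate turnover, labelled counts of the 3 arms were fitted with straight log2 lines that start from the same 0 h level and have their own slopes, and the half-life is the time in which a line falls by 1 log2 unit. Growth of the cells during the chase dilutes labelled RNA and is part of these slopes. The slopes are net changes of labelled reads, and labelled RNA still made after the wash was not measured apart from loss. Of the members, 8 had enough labelled reads (a mean of at least 20), and BAX and BAD did not. All 8 fell in DMSO (edgeR's quasi-likelihood test), against a background of 88.3% of 8817 genes called lower and 88.4% in either direction, so the count does not set the members apart. At 2 h in DMSO, only 1 of the 8 was below its 0 h level, with a median log2 ratio of 0.08 against 0.09 over all genes. By 4 h all 8 were below, with a median of -0.98 against -0.60. The levels thus did not lie on 1 straight line from 0 h, and the intervals below do not cover the choice of line or times. Half-lives in DMSO were 2.21 h for BCL2L1 (95% interval 1.83 to 2.78), 2.27 h for BAK1 (1.70 to 3.41), 2.40 h for MCL1 (2.01 to 2.97), 2.55 h for BBC3 (2.01 to 3.49), 2.63 h for PMAIP1 (1.83 to 4.68) and 2.79 h for BCL2L11 (2.03 to 4.47). BID at 3.63 h (2.77 to 5.28) and BCL2L13 at 5.40 h (3.78 to 9.44) were longer, and the median gene stood at 4.45 h. The intervals of the first 6 overlapped one another, and that of BCL2L13 overlapped those of PMAIP1, BCL2L11 and BID. Among all genes, 8.19% had a steeper fall than BCL2L1 and 11.6% a steeper fall than MCL1. With TMM scaling 6 members were called, BID and BCL2L13 being lost, and BCL2L13 had a slope of 0.028, above 0. Without DMSO at 8 h, PMAIP1 (0.0864) and BCL2L13 (0.243) were not called, and the half-lives of MCL1, BBC3 and BCL2L13 were 4.00, 4.15 and 9.27 h, over 1.5 times those with all libraries. With times to 4 h only, those of MCL1 and BBC3 were 4.37 and 4.58 h, near that of the median gene with all times, while BCL2L1 stood at 2.52 and 2.64 h in these 2 fits. In the fit to 4 h, 2 were called, BCL2L1 and BCL2L11, of 1304 genes against 7791 with all times. Of all genes, 7787 were called lower and 4 higher on the fly scale, and 2316 and 2019 with TMM.

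**Figure D4:**
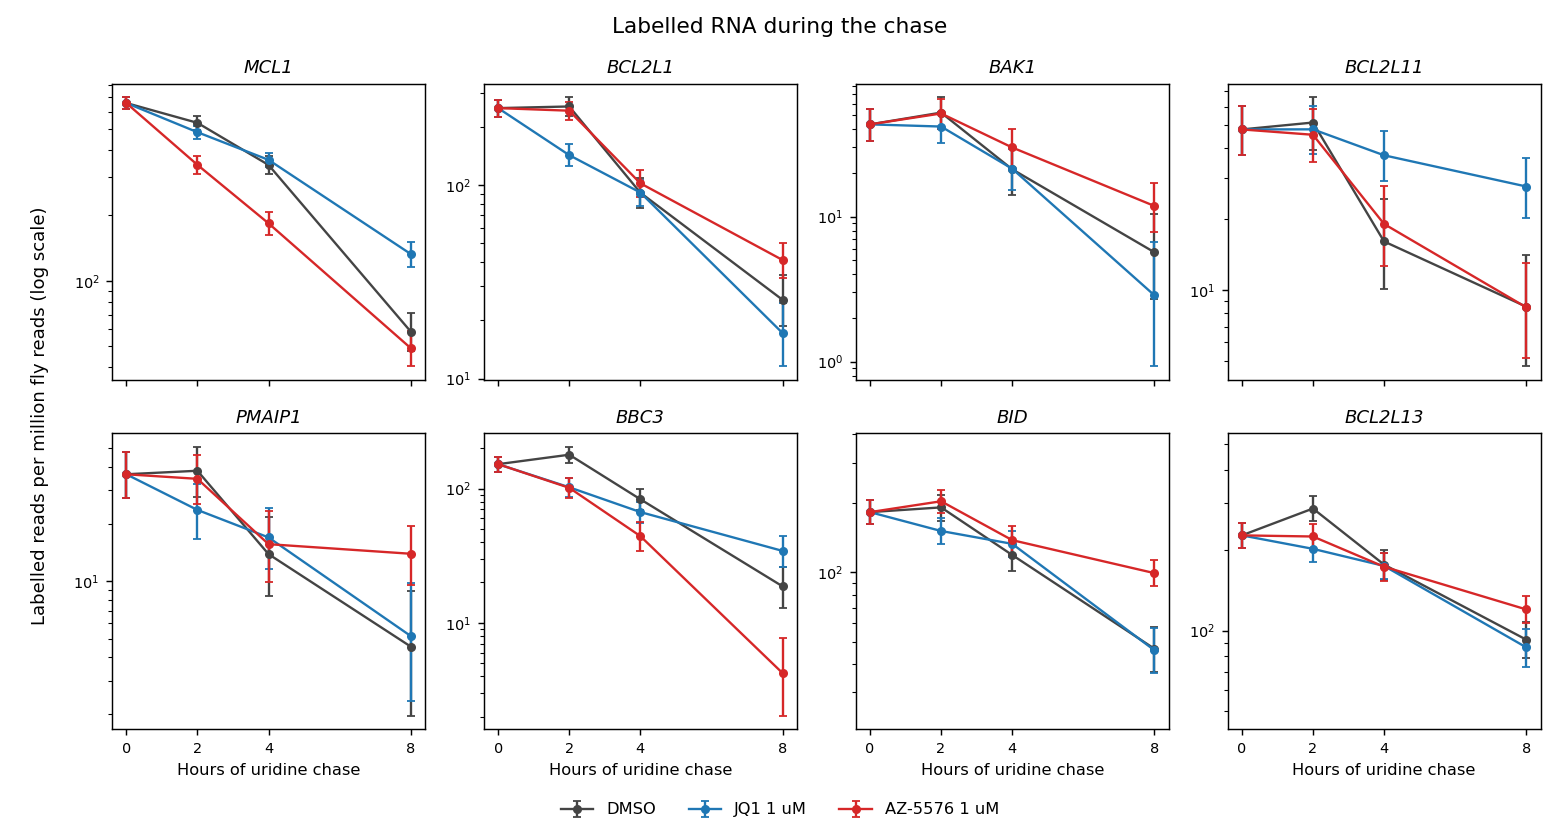
Labelled reads per 1000000 fly reads (log axis, own scale per gene) against hours of chase for the 8 members with a mean of at least 20 labelled reads; points are single libraries and bars exact 95% Poisson intervals. BBC3 falls to 4.23 in AZ-5576 at 8 h against 18.7 in DMSO, and BCL2L11 stands at 27.5 in JQ1 against 8.51 in DMSO.

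The fitted slope of labelled BBC3 RNA was steeper in AZ-5576 than in DMSO. Its labelled level was 152 at 0 h, then 179, 83.3 and 18.7 under DMSO, 102, 66.9 and 34.4 under JQ1, and 101, 44.3 and 4.23 under AZ-5576. AZ-5576 was below DMSO at each time, and JQ1 was below at 2 h and above at 8 h. At 2 h the labelled level was above its 0 h level in DMSO and below it in AZ-5576, and the slopes include this early difference. The slope difference of BBC3 was -0.25 ± 0.06 log2 units per hour (SE, edgeR adjusted p = 0.00194), with half-lives of 1.55 h in AZ-5576 (95% interval 1.32 to 1.89) and 2.55 h in DMSO. This was 1 of 8 members called, against 4.75% of genes in either direction and 1.22% called lower. The call was lost without AZ-5576 at 8 h (-0.16, adjusted p = 0.746), where BBC3 had 10 labelled reads, and with times to 4 h only. Across all genes the median slope was 0.030 higher in AZ-5576 than in DMSO.

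MCL1 lay on the same side as BBC3 without passing the threshold. Its labelled level was 657.5 at 0 h, then 533, 341 and 58.4 under DMSO, 483, 360.2 and 133 under JQ1, and 342, 184 and 49.0 under AZ-5576. AZ-5576 was below DMSO at each time, at 64.1% of DMSO at 2 h (exact 95% interval 56.8% to 72.3%), 53.9% at 4 h (46.2% to 62.7%) and 83.9% at 8 h (63.8% to 110.5%). The slope difference of MCL1 from DMSO was -0.10 ± 0.04 in AZ-5576 (SE, edgeR adjusted p = 0.137) and 0.10 ± 0.04 in JQ1 (0.323), with half-lives of 1.94 h in AZ-5576, 2.40 h in DMSO and 3.14 h in JQ1. The AZ-5576 difference passed the threshold with TMM (0.0117) and without DMSO at 8 h (0.0291), and the JQ1 difference was below 0 (-0.037) without DMSO at 8 h. BID had a slope 0.11 ± 0.04 higher in AZ-5576 (0.107), called without 0 h (0.0228) or DMSO at 2 h (0.0408) or without both libraries that stood apart (0.0226), and PMAIP1 one 0.15 ± 0.08 higher (0.3496). BCL2L1 had a slope difference of 0.07 ± 0.05 in AZ-5576 (0.4897) and -0.08 ± 0.05 in JQ1 (0.831).

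In JQ1 against DMSO, 0 of 8 members were called for the slope of labelled RNA (edgeR's quasi-likelihood test), against 0.669% of genes in either direction. At an unadjusted p under 0.05 stood 2 members, MCL1 and BCL2L11, and 657 of the 8817 genes. DESeq2 also called 0 members. BCL2L11 had a labelled level of 48.0 at 0 h, then 51.3, 16.1 and 8.51 under DMSO, 48.0, 37.3 and 27.5 under JQ1, and 45.5, 19.1 and 8.45 under AZ-5576. At 4 and 8 h the JQ1 libraries were above those of both other arms, whose counting intervals overlapped. Its JQ1 slope was 0.21 ± 0.07 higher than in DMSO (SE, edgeR adjusted p = 0.172), with half-lives of 6.73 h (95% interval 3.77 to 31.1) and 2.79 h, and 99.2% of genes had a lower slope difference. With TMM scaling it was called (0.23, adjusted p = 0.0466).

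**Figure D5:**
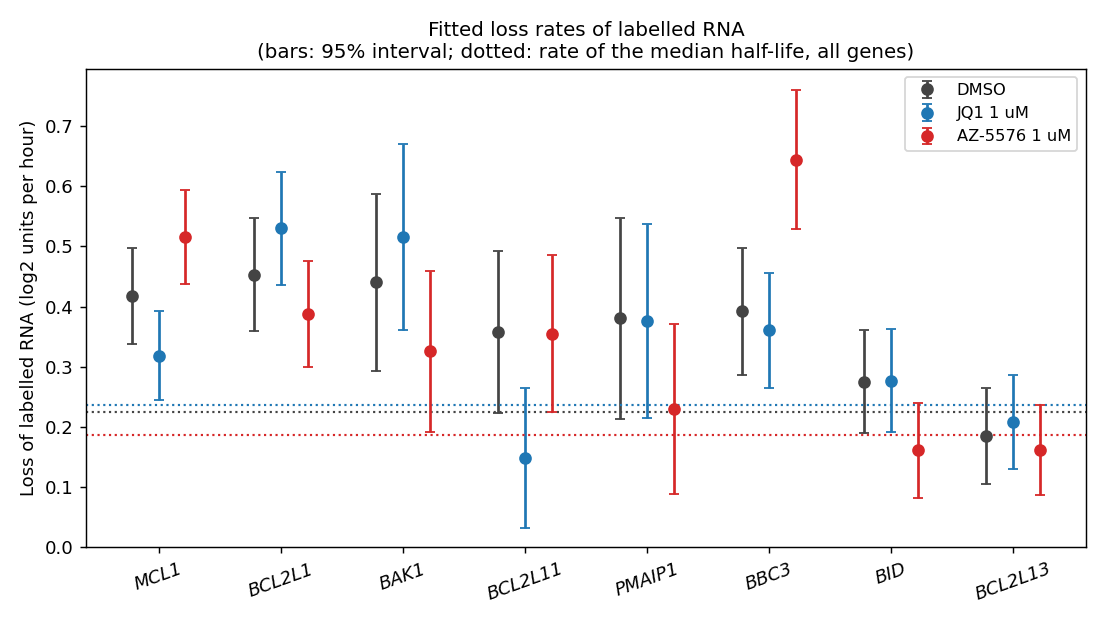
Fitted loss of labelled RNA in log2 units per hour (vertical axis, from 0; larger is faster) for 8 members in each arm; bars are 95% intervals of the slope and dotted lines mark the rate of the median half-life of all genes. BBC3 in AZ-5576 has the shortest half-life, 1.55 h, and BCL2L11 in JQ1 the longest, 6.73 h.

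Other genes of the pathway were read from 5 lists of apoptosis genes. Of 53 genes listed, 40 passed the count filter, and 1 was called in AZ-5576 against DMSO, 0 in JQ1 against DMSO and 1 in AZ-5576 against JQ1, against 2.47%, 0% and 1.19% of all genes, so the share of the lists was near that of all genes. The gene called was in each case CASP9, the initiator caspase of the apoptosome (-2.10 and -2.36, edgeR adjusted p = 0.0486 and 0.0456). The straight-line model called 38 of the 40 lower in AZ-5576 against DMSO, where 73.3% of all genes were called lower, and 6 lower and 1 higher in JQ1 against DMSO, where 16.2% and 1.79% were. The call of CASP9 in AZ-5576 against DMSO was lost without DMSO at 4 or 8 h, JQ1 at 2 or 4 h, or AZ-5576 at 4 h (0.0546 to 0.256), and that in AZ-5576 against JQ1 without any of these or JQ1 at 8 h (0.0532 to 0.204). Among other BCL2 relatives 4 of 13 were tested, with a median of -0.66 in AZ-5576 against DMSO, and BCL2, BCL2A1, BCL2L10, BCL2L14, BCL2L15, BOK, BMF, BIK and HRK were below the filter. The relatives with most reads were BCL2L12 (-0.67) and the mitophagy receptors BNIP3 (-0.75) and BNIP3L (-0.55), and the other one tested was BCL2L2. The straight-line model called all 4 lower in AZ-5576 against DMSO, and BCL2L2 alone lower in JQ1 against DMSO, beside the backgrounds given above. The apoptosome and caspase list (15 of 16 tested) had a median of -1.09. Inhibitors of apoptosis and their antagonists (7 of 8) had a median of -0.82, with BIRC5 (survivin) at -0.24 and the mitochondrial antagonists DIABLO at -0.82 and HTRA2 at -0.53. The death receptor arm (7 of 8) had the lowest median, -1.84, with the adaptor kinase RIPK1 at -1.85, the caspase-8 regulator CFLAR at -1.30 and the receptor TNFRSF10A at -1.63. Genes that control MCL1 protein turnover (7 of 8) had a median of -0.76, with the kinase GSK3A at -0.76 and the ubiquitin ligases HUWE1 at -0.68 and FBXW7 at -0.61, and the median of all genes tested was -0.82. In the main test, none of these named genes other than CASP9 passed the threshold. BCL2L12, BNIP3L, BIRC5, HTRA2, HUWE1 and FBXW7 lay above 0 with TMM scaling.

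The genes with levels most like those of MCL1 over the 10 libraries were LRR1 (Pearson r = 0.994), PIM3, KANSL2, ZBTB5 and BCL10 (0.992), of 8203 genes with a mean of at least 100 reads. For BCL2L1 they were LARP7 (0.9904), PA2G4, MDM4, USP3 and RBM26 (0.985). Within the family, r with MCL1 was 0.954 for BBC3, 0.912 for BCL2L11, 0.724 for BAK1, 0.717 for BCL2L13, 0.403 for BCL2L1 and 0.191 for BID. These correlations describe levels on the log2 scale in libraries that share the fly scale and the time course, and carry no test.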

How the data were processed

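RNA of 10 K562 libraries was read with a 3′ end kit (QuantSeq, forward) after iodoacetamide treatment, per the labels' protocols. The authors deposited raw read counts per gene for all human reads, for reads named nascent, taken here as labelled reads, and for fly reads. The tools listed in the submitters' processing notes are Trim Galore 0.6.5, bedtools and bcl2fastq 2.17.1.14, and the builds hg38 and dm6. The aligner, the counting tool, the use of strand and the rule for calling a read labelled are not given in the sources used here. Libraries were grouped by their titles, in which the columns headed UT are DMSO.

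Counts were fitted with edgeR 4.0.16 (R 4.3.3), quasi-likelihood test, with fly read totals as library scale after a filter on the mean count (at least 20), which left 11797 genes in the total and 8817 in the labelled table. The time-level model has 4 residual degrees of freedom and the slope models 6. With 1 library per condition, p-values measure scatter about the model, which mixes biology, handling and misfit. The common biological coefficient of variation was 0.362 for time levels, 0.205 for total slopes and 0.188 for labelled slopes. DESeq2 1.42.0, TMM, fly median-of-ratios scaling, no count filter, other models and leaving out each library were tried. The members, lists and tests were chosen with earlier results of these data known. All 10 members are named. From each list every gene called by the time-level model in a total RNA comparison is named, at most 6. Otherwise the 3 with the highest mean count are named, and BCL2L2 in addition. For MCL1 and BCL2L1 the 5 genes with the highest Pearson r of log2(level + 1) are named. Gene positions are those of GENCODE v29.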

Additional observations from a re-analysis of the deposited data

Results flagged for a closer look

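The JQ1 to DMSO ratio of BBC3 changed side between times, with counting intervals on both sides of 100%. Its total level in JQ1 was 64.1% of DMSO at 2 h (exact 95% interval 56.7% to 72.6%), 61.8% at 4 h (55.1% to 69.2%) and 126% at 8 h (115% to 137%). The intervals at 2 and 4 h lay below 100% and that at 8 h above it. PMAIP1 (91.3%, 87.1% and 144%) and BAX (58.5%, 116% and 54.6%) also crossed 100%, but their intervals that left out 100% lay on 1 side of it. The intervals cover counting error only, the change of side between times was not tested, and there is 1 library at each time.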

How the results depend on the processing

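No paired analysis was possible because each condition has 1 library and the labels give no replicate numbers shared between groups. As each library was left out in turn, the count of members called ran from 0 to 6 in AZ-5576 against DMSO for total RNA, 0 to 2 in JQ1 against DMSO, 0 to 4 in AZ-5576 against JQ1, 6 to 8 for the labelled loss in DMSO, 0 to 2 for its slope in AZ-5576 against DMSO, 0 to 0 in JQ1 against DMSO, and 1 to 2 for the total slope in DMSO. In the same order, 0.00847% to 58%, 0% to 7.16% and 0.059% to 32% of all genes were called for total RNA. For labelled RNA the share was 37.7% to 91.8%, 0.293% to 8.8% and 0.112% to 1%, and for the total slope 4.01% to 33.7%. For total RNA in AZ-5576 against DMSO the count was 1, where 2.47% of all genes were called. It was 3 with no count filter (11.9% of all genes) and 4 with DESeq2 (35.5%). It was 6 without the libraries that stood apart in fly reads (57.9%), 2 with JQ1 left out (14.3%) and 9 with slopes (73.8%). In JQ1 against DMSO it was 0 (0% of all genes), and 3 with AZ-5576 left out (22.5%) and 2 with slopes (18%). In AZ-5576 against JQ1 it was 1 (1.19% of all genes), and 2 with TMM (5.15%) and 3 with no filter (4.48%). It was 3 with DESeq2 (10.3%), 4 without the libraries that stood apart (31.8%) and 5 with slopes (55.9%). The labelled loss in DMSO went from 8 (88.4% of all genes) to 2 (14.2%) with times to 4 h only. The labelled slope in AZ-5576 went from 1 (4.75% of all genes) to 2 with TMM (6.43%). Times of 0 to 4 h gave 0 (0.164%), and 2 were called without the libraries that stood apart (9.07%). For JQ1 the labelled slope went from 0 (0.669% of all genes) to 1 with TMM (1.03%). The total slope in DMSO went from 2 (28.3% of all genes) to 1 (26.7%) without the libraries that stood apart. Without them the count was 0 in JQ1 against DMSO (0.211% of all genes). It was 8 for the labelled loss in DMSO (90.1%) and 0 for the labelled slope in JQ1 (1.2%). The libraries that stood apart were left out together as an alternative chosen after seeing the data, and the total slope in DMSO was likewise added.

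Values of single genes turned sign in 20 of 958 refits over 58 pairs of gene and comparison, 801 kept sign and side of the threshold, 99 came to pass it and 38 no longer did. With TMM in AZ-5576 against DMSO, BAX stood at 0.091, BID 0.44, BAD 0.48, BCL2L13 0.23, BCL2L12 0.062, BNIP3L 0.16, BIRC5 0.53, HTRA2 0.24, HUWE1 0.032 and FBXW7 0.12, and in JQ1 against DMSO BBC3 at 0.071. The labelled loss of BCL2L13 in DMSO was 0.028 with TMM. Over left-out libraries in JQ1 against DMSO, PMAIP1 ran from -0.37 to 0.38, BBC3 from -1.19 to 0.25 and MCL1 from -0.23 to 0.63, and the labelled slope of MCL1 from -0.037 to 0.14. BCL2L1 in AZ-5576 against JQ1 ran from -0.33 to 0.54, with -0.33 without the libraries that stood apart and -0.037 per hour with slopes. The cause was not tested. TMM by its construction sets the median gene near 0, which moved it from -0.82 to -0.08 in AZ-5576 against DMSO and from -0.31 to 0.01 in JQ1 against DMSO.

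The count over all genes was 291 in AZ-5576 against DMSO, with 3605 (no filter), 4192 (DESeq2), 6871 (without the libraries that stood apart), 1660 (JQ1 left out) and 8709 (slopes), and 1 to 6866 over left-out libraries. In JQ1 against DMSO it was 0, with 4 (TMM), 212, 71, 25, 2697 and 2126 in the same order after TMM, and 0 to 847. In AZ-5576 against JQ1 it was 140, with 608 (TMM), 1358, 1212, 3774 and 6590 (slopes), and 7 to 3786. For labelled RNA it was 7791 for the loss in DMSO (4335 with TMM, 1304 to 4 h, 3370 to 7968), 419 for the AZ-5576 slope (331 lower and 236 higher with TMM against 108 and 311, 251 with no filter, 279 with DESeq2, 15 to 4 h, 776 without the libraries that stood apart, 26 to 764) and 59 for the JQ1 slope (91 with TMM, 34 lower and 57 higher against 31 and 28, 37 with DESeq2, 5 to 4 h, 103 without the libraries that stood apart, 10 to 87). The total slope in DMSO was called for 3333 genes, 468 to 3992 over left-out libraries. Depth limits BAX, BAD and PMAIP1 most, whose counts were below 100 reads in at least 6 of 10 libraries.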
